A study of Homo sapiens with 14 samples.

Results

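Genes that run towards each other and overlap at their 3′ ends were examined for RNA polymerase II (RNAPII) occupancy in BJ hTERT cells, human fibroblasts immortalised with telomerase. A pair was taken where a plus-strand gene started before a minus-strand gene of the same chromosome and ended inside it, with neither gene nested in the other. This gave 690 pairs with 1373 genes, 11.06% of the 12411 nuclear genes in the table, and 7 genes belonged to 2 pairs. Occupancy came from chromatin immunoprecipitation and sequencing (ChIP-seq) with an antibody labelled as against the Rpb1 N-terminal domain, here called total RNAPII, or with one against the form of Rpb1 whose C-terminal domain is phosphorylated on serine 2 (Ser2). For each antibody there was 1 library at 14 h with no treatment named, and 1 each at 16, 19 and 22 h from cells given DMSO, the vehicle, or an inhibitor of the checkpoint kinase ATR (ATRi), 14 libraries in all. What the hours count from, the identity of the inhibitor and any synchronisation of the cells are not stated in the labels, and the protocol text names a phosphorylated H2A.X and a histone H3 antibody rather than the RNAPII antibodies. With 1 library per group, hours or treatments stood in for replicates, and p-values measure only the spread between these libraries.

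RNAPII does not stop at the end of a gene. After the polyadenylation signal the transcript is cleaved, a nuclease degrades the RNA still attached to the polymerase, and the enzyme is released some way downstream, while serine 2 phosphorylation rises along the gene body and recruits the cleavage and termination machinery. Where 2 genes converge, polymerases on opposite strands can enter the same stretch of DNA, and the stretch can give antisense RNA to both genes. ChIP recovers double-stranded DNA, so occupancy in the shared stretch carries no strand.

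The pairs included 3 with a mitotic gene: EXOSC9 with CCNA2, KIF20A with CDC23 and ITFG2 with FOXM1. CCNA2 encodes cyclin A2, which activates CDK in S and G2 phase, KIF20A is a kinesin of cytokinesis and FOXM1 is a transcription factor of G2 and mitotic genes. EXOSC9 is a subunit of the RNA exosome, CDC23 one of the anaphase-promoting complex and ITFG2 one of a regulator of mTORC1. The 2 genes of such a pair share their 3′ ends but start from separate promoters, so the 250 bases before the RefSeq start (GRCh38.p14) are shown for the 5 of the 6 genes that had an entry. They were searched on both strands for CCAAT, the binding site of NF-Y, and for 2 forms of the cell cycle genes homology region (CHR), TTTGAA and CTTGAA. Matches are in capitals, as read on the strand of the gene, 5′ to 3′.
CCNA2, chr4:121823884-121824133, minus strand: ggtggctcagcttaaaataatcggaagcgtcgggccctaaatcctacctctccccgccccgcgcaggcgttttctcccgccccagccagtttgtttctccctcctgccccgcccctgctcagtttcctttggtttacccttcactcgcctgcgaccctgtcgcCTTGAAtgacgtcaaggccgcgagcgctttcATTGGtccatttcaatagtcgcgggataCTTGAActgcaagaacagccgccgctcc
EXOSC9, chr4:121801073-121801322, plus strand: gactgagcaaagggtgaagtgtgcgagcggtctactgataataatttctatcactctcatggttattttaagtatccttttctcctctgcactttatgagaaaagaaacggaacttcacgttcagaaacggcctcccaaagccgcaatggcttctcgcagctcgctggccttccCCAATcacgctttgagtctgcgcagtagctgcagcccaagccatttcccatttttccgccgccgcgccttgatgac
KIF20A, chr5:138178862-138179111, plus strand: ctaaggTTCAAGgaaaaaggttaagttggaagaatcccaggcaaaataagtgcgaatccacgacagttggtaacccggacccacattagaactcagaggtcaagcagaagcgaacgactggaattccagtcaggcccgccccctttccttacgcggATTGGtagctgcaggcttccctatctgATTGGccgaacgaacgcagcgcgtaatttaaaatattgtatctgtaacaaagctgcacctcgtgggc
CDC23, chr5:138213324-138213573, minus strand: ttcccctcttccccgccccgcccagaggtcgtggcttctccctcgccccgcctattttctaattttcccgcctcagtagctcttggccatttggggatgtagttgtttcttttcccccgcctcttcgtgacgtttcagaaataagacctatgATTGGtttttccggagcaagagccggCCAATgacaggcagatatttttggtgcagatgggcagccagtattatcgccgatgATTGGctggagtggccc
ITFG2, chr12:2812418-2812667, plus strand: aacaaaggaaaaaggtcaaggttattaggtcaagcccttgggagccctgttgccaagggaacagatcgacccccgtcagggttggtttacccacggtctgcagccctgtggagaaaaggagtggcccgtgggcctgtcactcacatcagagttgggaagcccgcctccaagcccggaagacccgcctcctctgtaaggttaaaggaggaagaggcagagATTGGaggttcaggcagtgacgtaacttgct
CCNA2 held 2 CHR matches and 1 CCAAT match, KIF20A 1 and 2. Their partners EXOSC9 and CDC23 held no CHR match and 1 and 3 CCAAT matches, and ITFG2 held none and 1. Of 27305 promoters of this length, 21.3% held a CHR match and 33.0% a CCAAT match, and of the 963 promoters of genes in overlapping pairs 12.3% and 34.3% did. The RefSeq start of KIF20A lies 393 bp inside the start in the table, and the other 4 lie at most 50 bp from theirs.

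The overlaps were 2 to 157940 bp long, with a median of 2795 bp. They covered under 10% of the shorter gene in 252 pairs, 10 to 50% in 275 and over 50% in 163. The longest was that of SLC8A1, the sodium-calcium exchanger, with its antisense RNA SLC8A1-AS1. JPX and FTX, a pair of non-coding RNAs of the X-inactivation centre, came next with 106454 bp. The span of a gene in these pairs (median 30164 bp) was close to that of all genes (30115 bp). By position 1165 of the 1373 genes matched a RefSeq gene. Of the pairs, 403 were of 2 protein-coding genes and 72 of a protein-coding gene and a long non-coding RNA. Among the 491 pairs with both genes matched, the RefSeq spans of 424 also overlapped and those of 67 did not. Another listed gene overlapped 1 or both genes of 337 pairs. The hairpins of 5 miRNAs lay inside an overlap, among them MIR4706 in that of FNTB and MAX and MIR6759 in that of CDK4 and ENSG00000135452.

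**Figure D1:**
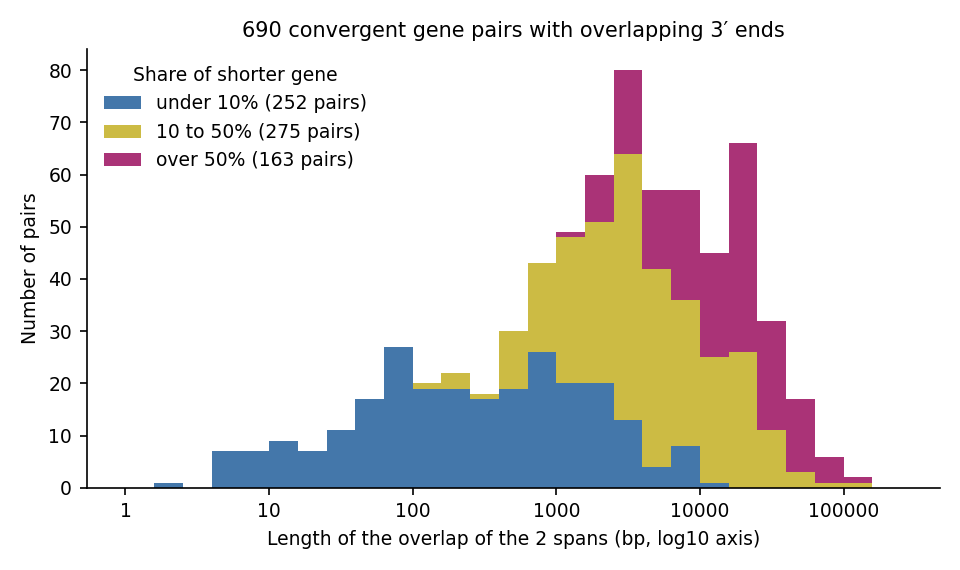
Histogram of the length of the overlap (bp, log10 axis) in 690 convergent pairs, stacked by the share of the shorter gene that is overlapped. Short overlaps are a small share of both genes and lengths centre near the median of 2795 bp.

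Reads in an overlap cannot be assigned to 1 gene, and this limits every value below. Reads in a shared stretch were not all left out. Whether each gene holds all reads over its span, whatever their strand, is not stated. In 1192 pairs of nested genes, 308 of them on opposite strands, the inner gene held reads over the 14 libraries together. In no library did it hold more than the outer gene. Inner genes covered a median of 2.63% (same strand) and 10.7% (opposite strands) of the outer span. This check therefore cannot tell reads counted to both genes from reads given to 1. The 2 genes of a convergent pair are taken here to share part of their reads, a share that grows with the overlap. Results are given by the share of overlap and beside 241 convergent pairs that end within 1 kb of each other without overlapping.

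The libraries held 17181179 to 62368915 reads, 35.8% to 72.0% of them in nuclear genes. This share was high in the 4 libraries of 19 h (63.5% to 72.0%) and lower in the other 10, and neither input nor spike-in was used here, so a shift over all genes cannot be told apart from a better immunoprecipitation. Of 16 fibroblast markers 15 were listed, with a median of 2.25 reads per 1000000 library reads (RPM) per kb of span. Of the 25 markers of keratinocytes, endothelium and blood, and melanocytes, 4 were listed, at 0.143 to 0.620 RPM per kb, and none of these markers was in an overlapping pair.

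Convergent overlapping genes carried more RNAPII per kb than other genes in each of the 14 libraries. Their median over the mean of all libraries was 0.993 RPM per kb against 0.718 in the other 11038 genes. In total RNAPII the median went from 0.755 at 14 h to 1.65 at 19 h in DMSO, and in Ser2 from 0.575 at 16 h in DMSO to 1.31 at 19 h in DMSO. Genes with under 10% of their span shared had a median of 0.828, those with over 50% shared 1.34, genes of convergent pairs ending within 1 kb 1.19, and genes overlapping no listed gene 0.670. A level of 0.330 RPM per kb is what reads spread evenly over the chromosomes would give. Of the members 52 (3.79%) lay under it, against 9.47% of all genes. These levels are a description and were not tested.

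**Figure D2:**
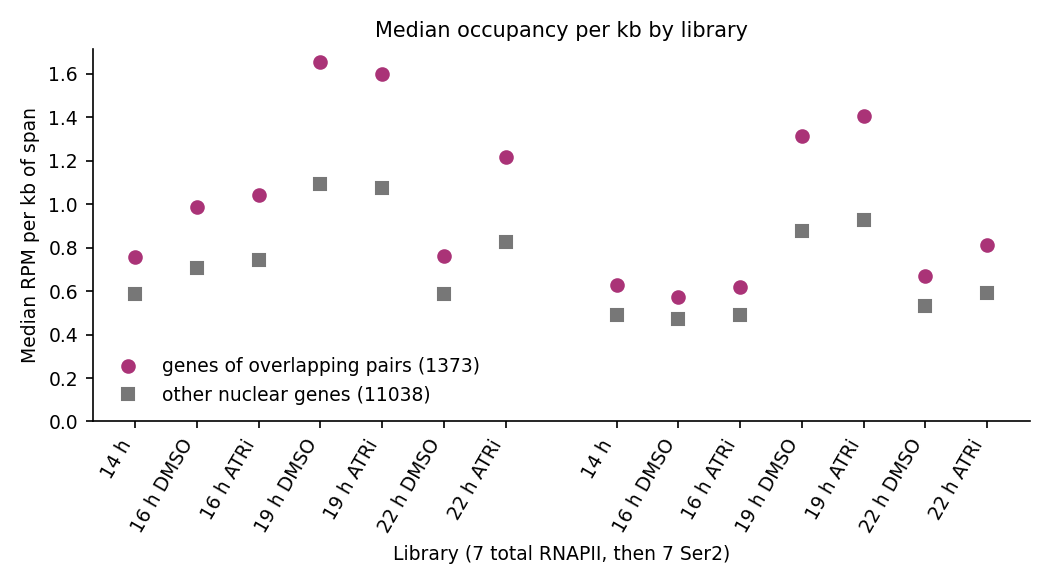
Median RPM per kb of span (y axis, from 0) in each of 14 libraries for the 1373 genes of overlapping pairs (circles) and the other 11038 nuclear genes (squares). The circles lie above the squares in every library, and both are highest at 19 h.

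The 2 genes of an overlapping pair differed by a median of 1.58-fold per kb, and 66.2% lay within 2-fold. Neighbours that did not overlap differed by 1.75-fold (convergent, ending within 1 kb) and 1.80-fold (convergent, farther apart). CD151, a tetraspanin, and POLR2L, a small subunit of the nuclear RNA polymerases, were the pair with the highest weaker partner, at 6.29 and 9.36 RPM per kb. At the other end, TMEM200B at 4.15 RPM per kb met EPB41, the membrane skeleton protein 4.1, at 0.274, a 15.2-fold difference across an overlap of 619 bp. TOE1, an exonuclease that trims small RNAs, and the kinase TESK2 differed 13.6-fold (4.11 and 0.301 RPM per kb). The means over the spans of EPB41 and TESK2 lay under the level of evenly spread reads. That level includes the reads of enriched regions, and a mean over a span can hide a local peak. A value under it therefore does not show that RNAPII was absent.

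Between 16 and 22 h, Ser2 RNAPII rose over most of these genes. By limma over all genes (log2(RPM + 0.5), Benjamini-Hochberg adjusted p under 0.05), 807 of 1371 tested members were higher at 22 h, or 58.9%, where 39% of all 11989 genes were. The share was close, at 54.5%, in genes of convergent pairs that end within 1 kb without overlapping. Among members it was 48.4% with under 10% of the span shared and 70% with over 50% shared. Lower were 3 members, where 0.918% of all genes were, so that 59.1% of members and 39.9% of all genes changed in either direction. The median log2 change was 0.29 in members, 0.29 in genes of convergent pairs ending within 1 kb and 0.21 in all genes. Within DMSO and within ATRi it was 0.22 and 0.36 in members. Relative to the median of all genes, 248 members were higher (18.1%, background 10.2%) and 60 lower (4.38%, background 10.5%). The members' density moved with this count: within the fifth of genes with the highest RPM per kb the median change was 0.45 in members and 0.39 in other genes. Its part in the result was not tested. On recovered reads edgeR called 213 members higher and 36 lower (8.79% and 6.63% of all genes) and DESeq2 125 and 29 (5.2% and 4.98%).

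The 8 members with the largest called gains were POLR1G, ENSG00000134480, ENSG00000166598, SMC4, RASA1, CCDC107, CDCA3 and CLBA1, with log2 changes of 1.16 to 0.93. CCNA2, from the mitotic list, held 10.3 RPM (DMSO) and 9.72 (ATRi) in Ser2 at 16 h and 14.2 and 20.8 at 22 h, a log2 change of 0.76 ± 0.12 (limma SE, adjusted p = 0.000208). EXOSC9, which shares 578 bp or 3.68% of its span with it, went from 14.4 and 13.2 RPM to 18.8 and 24.7, a log2 change of 0.63 ± 0.11 (adjusted p = 0.000404). In both genes the 22 h values lay above the 16 h values with no overlap, and the 19 h values were the highest. SMC4, a core subunit of condensin, went from 25.1 and 27.7 RPM to 47.5 and 64.7, a log2 change of 1.06 ± 0.10 (adjusted p = 2.94e-06). Its partner ENSG00000213186, with 4.72% of its span shared, changed by 0.81 ± 0.10 (adjusted p = 1.76e-05). RASA1, which switches off Ras, went from 65.7 and 62.8 RPM to 104 and 154, a log2 change of 0.98 ± 0.11 (adjusted p = 1.65e-05). Its partner ENSG00000134480 rose by 1.14 ± 0.12 (adjusted p = 6.18e-06) although only 438 bp, 0.353% of RASA1 and 2.03% of the partner, is shared.

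The other pairs with a mitotic gene moved likewise. FOXM1 held 12.8 and 13.7 RPM in Ser2 at 16 h and 21.9 and 24.1 at 22 h, a log2 change of 0.77 ± 0.09 (limma, adjusted p = 2.24e-05). ITFG2 changed by 0.49 ± 0.09 (adjusted p = 0.000555). KIF20A held 7.06 and 6.09 RPM at 16 h and 8.59 and 9.81 at 22 h, a log2 change of 0.46 ± 0.12 (adjusted p = 0.00703), and CDC23, which shares 68 bp with it, changed by 0.35 ± 0.12 (adjusted p = 0.0244). CDCA3, a cell division cycle associated gene, rose by 0.94 ± 0.10 (adjusted p = 7.5e-06) and GNB3, a G protein subunit with 35.0% of its span shared, by 0.88 ± 0.11 (adjusted p = 3.25e-05). Relative to the median gene, the log2 changes of KIF20A and CDC23 were 0.23 and 0.13 and did not pass (adjusted p = 0.155 and 0.404), while those of CCNA2, FOXM1, CDCA3, SMC4 and RASA1 passed.

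None of the 5 members from the list of G1/S and replication genes (TYMS, GINS2, CHAF1A, RFC4 and CCNE2) was called higher at 22 h. Of all genes 39% were, and 7 of the 42 listed genes of that list. With 5 genes, a difference from these shares was not tested. TYMS, thymidylate synthase, held 17.6 and 19.1 RPM in Ser2 at 16 h and 14.3 and 16.9 at 22 h, a log2 change of -0.23 ± 0.10 that missed the threshold (limma, adjusted p = 0.0579) and passed relative to the median gene (-0.46, adjusted p = 0.00115). Its partner ENOSF1, with 7.69% of its span shared, changed by -0.09 ± 0.09 (adjusted p = 0.46), and relative to the median gene fell by 0.31 (adjusted p = 0.0113). GINS2, a subunit of the replicative helicase, overlaps ENSG00000131149 by 7 bp. ENSG00000131149 went from 38.7 and 43.9 RPM to 33.0 and 36.0 and was lower (log2 change -0.25 ± 0.09, adjusted p = 0.0313), and GINS2 changed by -0.06 ± 0.11 (adjusted p = 0.67). The other lower members were RGS11, a regulator of G protein signalling (-0.39 ± 0.15, adjusted p = 0.0464), and DNAH11, an axonemal dynein (-0.22 ± 0.08, adjusted p = 0.0459). DNAH11 lay at 0.249 RPM per kb, under the level of evenly spread reads.

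Partners changed alike. Both genes were called higher at 22 h in Ser2 in 311 of 688 pairs (45.2%), against 20.2% of 11638 neighbouring pairs, 42.3% of convergent pairs ending within 1 kb and 16.3% of convergent pairs farther apart. Singly, 58.9% of members and 39% of all genes were called higher, so this share does not by itself show likeness between partners. No overlapping pair held 1 gene called higher and 1 lower, where 0.361% of neighbouring pairs did. Only 3 members were called lower at all, so few such pairs were possible. Across 688 overlapping pairs the log2 changes of the 2 genes correlated with a Pearson r of 0.59, and 0.66 in total RNAPII over 689 pairs. These are descriptions across pairs that share the same libraries, and the 2 genes of a pair may share reads. In convergent pairs ending within 1 kb, which share no span, r was 0.61 in Ser2 and 0.65 in total. In convergent pairs with a gap over 1 kb it was 0.24 and 0.15, in divergent neighbours that do not overlap 0.14 and 0.17 and in same-strand neighbours that do not overlap 0.22 and 0.19. Divergent neighbours that overlap at their 5′ ends gave 0.50 and 0.455. Divergent and same-strand neighbours within 1 kb of each other gave 0.35 and 0.41 in Ser2, and 0.31 and 0.45 in total. The differences between these correlations were not tested. The mean log2 levels per kb of the 2 genes correlated as well. For levels r was 0.44 in overlapping pairs, 0.61 in convergent pairs within 1 kb and 0.23 in those farther apart. It was 0.25 in divergent and 0.27 in same-strand neighbours that do not overlap. The part of level in the likeness of change was not tested.

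**Figure D3:**
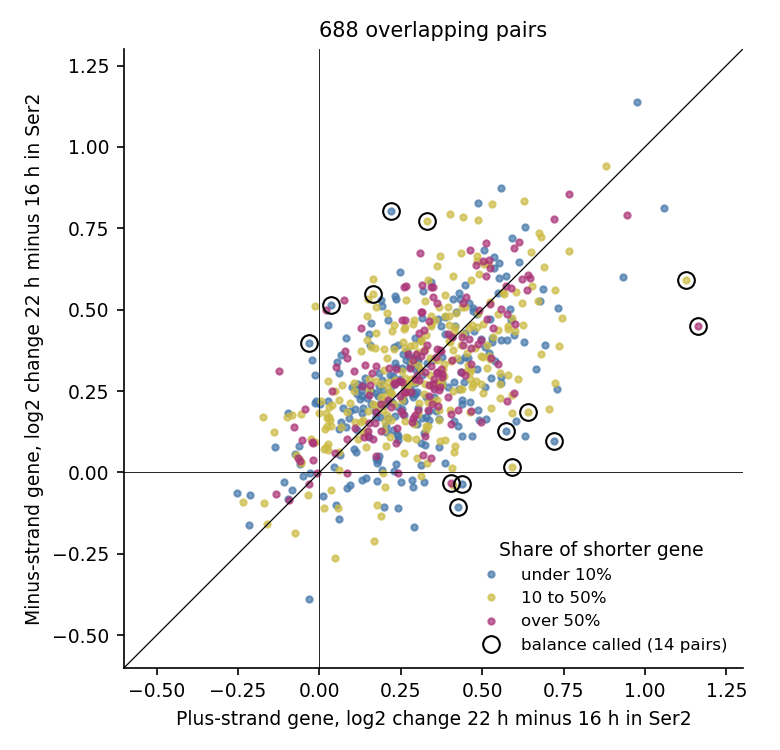
Log2 change from 16 to 22 h in Ser2 of the plus-strand gene (x axis) and the minus-strand gene (y axis) in 688 overlapping pairs, coloured by the share of the shorter gene overlapped; circles mark pairs whose 2 genes changed differently by limma (14 pairs) and the line is equality. Most points lie in the upper right and along the line in all 3 colours.

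The correlation was highest where the overlap was over 50% of the shorter gene, and it was present below 10% too. In Ser2 from 16 to 22 h r was 0.56 where the overlap was under 10% of the shorter gene, 0.58 at 10 to 50% and 0.64 above 50%. In total RNAPII it was 0.58, 0.69 and 0.75. For ATRi against DMSO it was 0.34 under 10% and 0.49 above 50% in total RNAPII, and 0.42 and 0.59 in Ser2. For the 252 pairs under 10%, reads expected in the overlap at the partner's mean density were taken off each gene, which left r at 0.52 in Ser2 and 0.55 in total. With 3 times that density taken off, r was 0.42 and 0.45. This assumes a flat density and cannot follow a peak of RNAPII at the 3′ end. Among pairs with both genes at or above 0.660 RPM per kb, 2 times the level of evenly spread reads, r in Ser2 was 0.60 in 418 overlapping pairs, 0.58 in 153 convergent pairs within 1 kb and 0.24 in 634 farther apart. The likeness was also present within each treatment, at 0.59 in DMSO and 0.55 in ATRi in Ser2, and 0.50 and 0.60 in total.

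Among 690 values of genes with under 10% of their own span in the overlap, taking off 3 times the partner's density moved the Ser2 change by a median of 0.0078 on the log2 scale. It moved 60 of them (8.70%) by over 0.1 and turned the sign of 36. With 3 times the density of CCNA2 taken off its overlap, the change of EXOSC9 in Ser2 was 0.60 on the log2 scale, against 0.63 as deposited. That of ENSG00000134480 stayed at 1.14, and that of ENSG00000213186 went from 0.81 to 0.73 with 3 times the density of SMC4 taken off. ITFG2 went from 0.49 to 0.41 beside FOXM1. ERCC1, whose 3′ end holds most of POLR1G, went from 0.45 to 0.10. MRPL20, a mitochondrial ribosomal protein gene with 2.57% of its span shared, went from 0.16 to 0.08 beside MRPL20-AS1, and ZBTB8A, with 8.67% shared, from 0.05 to -0.06; both were chosen after their values were seen.

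**Figure D4:**
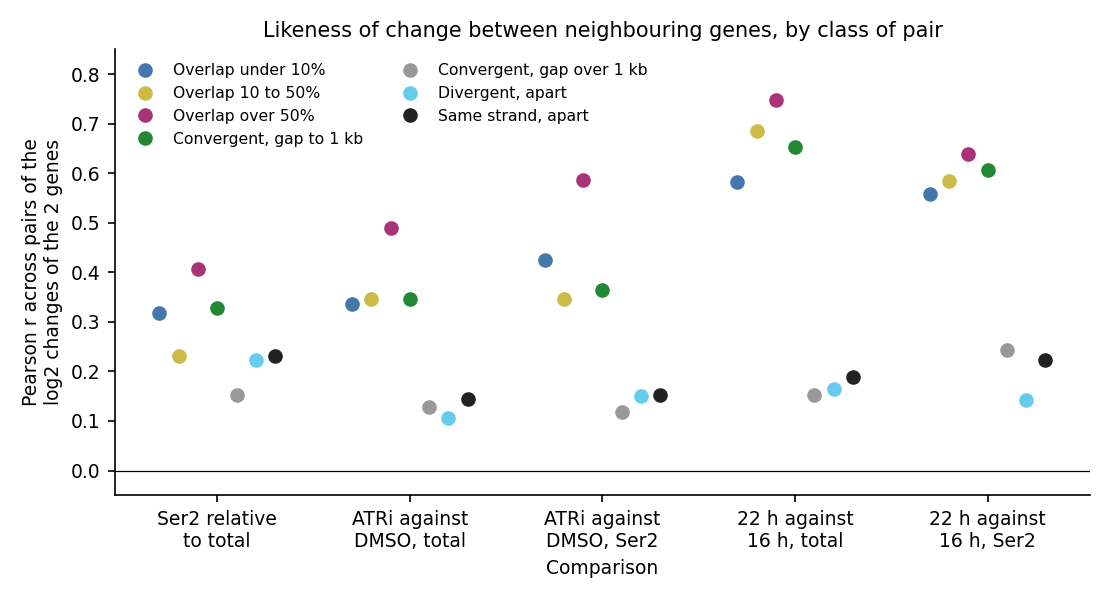
Pearson r across pairs (y axis) between the log2 changes of the 2 neighbouring genes in 5 comparisons (x axis), coloured by class of pair. The 3 overlap classes and the convergent pairs within 1 kb lie above the 3 other classes in both 22 h against 16 h comparisons.

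A difference between partners could be called in few pairs over time. The balance of a pair, the log2 level of the plus-strand gene minus that of the minus-strand gene, cancels library scaling apart from the pseudocount of 0.5. It does not cancel unlike enrichment between libraries. The members' median change in Ser2 from 16 to 22 h was 0.05 in the fifth of lowest RPM per kb and 0.45 in the highest. The balance of 2 genes of unlike density can therefore differ for that reason alone, and the part of density was not tested. From 16 to 22 h in Ser2 limma called the balance of 14 of 688 overlapping pairs (2.03%), 9 higher and 5 lower, where it called 6.43% of 11638 neighbouring pairs (3.16% higher and 3.27% lower), 1.24% of convergent pairs within 1 kb and 6.39% of those farther apart. Without the 19 h libraries, which add to the estimate of spread, 1 overlapping pair was left. In total RNAPII limma called none of 689, and 7 pairs were higher and 8 lower by the unadjusted p at 0.05, beside 484 and 498 of all 11717 neighbouring pairs. POLR1G, a subunit of RNA polymerase I, rose more than ERCC1, a nuclease subunit of nucleotide excision repair. POLR1G went from 5.80 and 6.35 RPM in Ser2 to 11.9 and 17 and ERCC1 from 59.0 and 59.5 to 72.1 and 91.2, a balance change of 0.71 ± 0.10 (adjusted p = 0.0177), although 75.3% of POLR1G is shared. EFEMP2, a fibulin of elastic fibres, rose more than MUS81, a structure-specific nuclease. EFEMP2 went from 15.1 and 20.5 RPM to 25.6 and 36 and MUS81 from 28 and 37.2 to 36.1 and 45.8, a balance change (MUS81 to EFEMP2) of -0.44 ± 0.09 (adjusted p = 0.0342). DALRD3, which takes part in tRNA methylation, rose by 0.51 ± 0.10 (adjusted p = 0.000605) beside WDR6 at 0.04 ± 0.10 (adjusted p = 0.804), with a balance change of -0.48 ± 0.10 (adjusted p = 0.0358). TIMM22, a translocase of the inner mitochondrial membrane, rose by 0.72 ± 0.14 (adjusted p = 0.000889) beside ABR at 0.10 ± 0.09 (adjusted p = 0.397), with a balance change of 0.62 ± 0.15 (adjusted p = 0.0492). ABR lay at 0.192 RPM per kb, under the level of evenly spread reads.

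**Figure D5:**
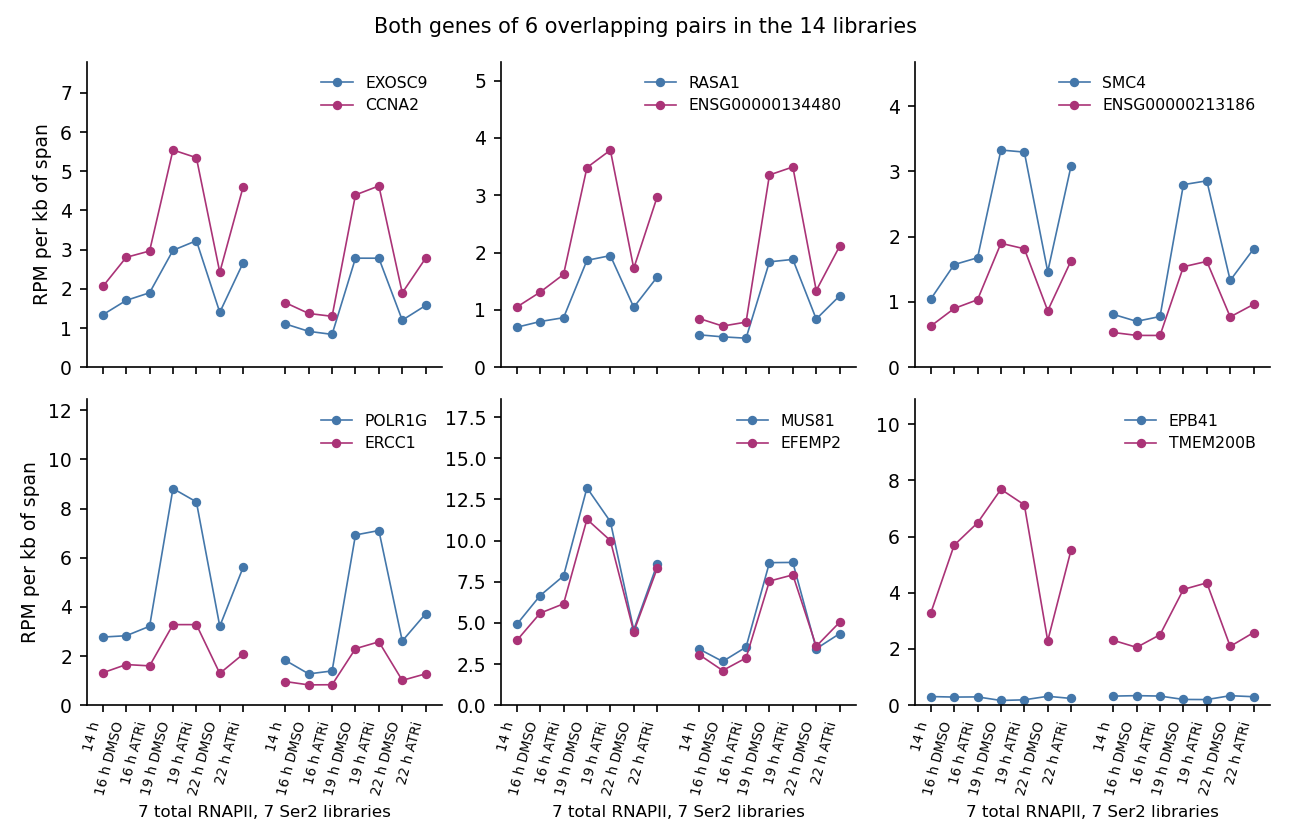
RPM per kb of span (y axes, from 0) of both genes of 6 overlapping pairs in the 7 total RNAPII and 7 Ser2 libraries (x axis). In the upper row the 2 genes follow each other across libraries; in the lower row POLR1G lies above ERCC1, EFEMP2 lies above MUS81 only in Ser2 at 22 h, and TMEM200B (mean 4.15) lies far above EPB41 (mean 0.274).

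In Ser2 relative to total RNAPII, partners were called different more often than over time. The same held over all neighbouring pairs (51.2%, beside 6.43% from 16 to 22 h in Ser2). This fit used all 14 libraries and the one over time fewer, so these shares come from unlike tests. Over 7 pairs of libraries limma called 1221 of 1372 members lower in Ser2 than in total, or 89%, where 78.7% of all 12000 genes were, and 21 higher (1.53%, background 3.79%), 82.5% of all genes being called in either direction. Genes of convergent pairs ending within 1 kb were close to members, with 90.0% lower and 1.46% higher. Among members 84.1% were lower with under 10% of the span shared and 95.4% with over 50% shared. The antibodies are not calibrated to each other, and the median log2 ratio was -0.43 in members and -0.36 in all genes. Relative to the median gene 268 members were higher (19.5%, background 30.1%) and 395 lower (28.8%, background 24.5%). On recovered reads edgeR called 276 higher and 413 lower (29.7% and 25.9% of all genes), and DESeq2 290 and 318 (30.9% and 21.8%). The ratio fell with density in all genes, and within the fifth of highest RPM per kb the median was -0.57 in members and -0.62 in other genes. TSR3, an enzyme of ribosomal RNA modification, held 3.38 to 8.78 RPM in the total libraries and 1.49 to 4.13 in Ser2, a log2 ratio of -1.12 ± 0.09 (adjusted p = 0.000263). The mitochondrial ribosomal protein gene MRPS7 followed with -1.04 ± 0.09 (adjusted p = 0.000263), and TOE1 with -0.92 ± 0.12 (adjusted p = 0.000363). The called members with the highest ratio were COLQ (0.32), CCDC146 (0.30), ENSG00000118557 (0.30) and ULK4. ULK4, a kinase-like gene, stood at 0.29 ± 0.06 (adjusted p = 0.0015) and MAP3K13, a kinase of the JNK pathway, at 0.25 ± 0.05 (adjusted p = 0.00205). Both lay under the level of evenly spread reads, at 0.257 and 0.238 RPM per kb.

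Both genes were called lower in Ser2 in 556 of 689 pairs (80.7%, background 64.4%), both higher in 1 (0.145%, background 0.369%) and in opposite directions in 14 (2.03%, background 4.77%). Singly, 89% of members and 78.7% of all genes were called lower, and 1.53% and 3.79% higher. These shares of pairs therefore do not by themselves show likeness between partners. The log2 ratios of the 2 genes correlated with r of 0.30 in overlapping pairs, no higher than 0.33 in convergent pairs within 1 kb. It was 0.15 in convergent pairs farther apart and 0.35 in divergent overlapping neighbours. Divergent and same-strand neighbours within 1 kb gave 0.35 and 0.23. The balance between partners differed between the antibodies in 327 of 689 overlapping pairs by limma (47.5%), against 51.2% of 11657 neighbouring pairs. EPB41 and TMEM200B had the largest difference in favour of the plus-strand gene, 1.03 ± 0.16 (adjusted p = 0.000701): TMEM200B was lower in Ser2 by 0.86 and EPB41 higher by 0.17. TOE1 and TESK2 had the largest in the other direction (-1.06 ± 0.15, adjusted p = 0.000602). In both pairs the gene higher in Ser2 relative to its partner was the one under the level of evenly spread reads. The part of density in these balances was not tested. BAIAP3 and TSR3, with 0.562 and 1.64 RPM per kb, differed by 0.71 ± 0.08 (adjusted p = 0.000273).

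No member was called for ATRi against DMSO with hours as blocks, in total RNAPII, in Ser2 or in the difference between them, by limma, edgeR or DESeq2, and the same was true of all genes (0% called). By the unadjusted limma p at 0.05, 19 members were higher and 0 lower in total RNAPII, 470 and 2 in Ser2, and 0 and 0 in the difference. Over all genes these counts were 204 and 0 of 12031, 2630 and 25 of 11989, and 4 and 5 of 12013. In Ser2, DESeq2 gave no adjusted p for 10692 of the 11989 genes, so its count covers only the rest. The hours did not move together. In total RNAPII the median log2 change of members with ATRi was 0.06 at 16 h, -0.04 at 19 h and 0.65 at 22 h, beside 0.05, -0.03 and 0.50 in all genes. In Ser2 it was 0.08, 0.07 and 0.24, beside 0.06, 0.06 and 0.16. The share of reads in nuclear genes was 42.8% in DMSO and 57.4% in ATRi in total RNAPII at 22 h. Its part in the shift was not tested. Without the 22 h libraries the median over members in total RNAPII was 0.01. In Ser2, leaving out 19 h gave 122 members called higher (8.90%), with 846 of 11926 over all genes, and leaving out 16 h gave 2, with 38 of 12020. CCNA2 shows the pattern: ATRi libraries in total RNAPII held 22.2, 40.0 and 34.5 RPM at 16, 19 and 22 h and DMSO libraries 21.0, 41.5 and 18.2. Partners changed alike here too, with r of 0.38 in total and 0.43 in Ser2 in overlapping pairs, 0.35 and 0.365 in convergent pairs within 1 kb and 0.13 and 0.12 in those farther apart. Divergent overlapping neighbours gave 0.37 and 0.40, and divergent and same-strand neighbours within 1 kb 0.22 and 0.27 in total and 0.27 and 0.27 in Ser2.

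Total RNAPII gave no member called between 16 and 22 h by limma or edgeR, where 6 of 1372 were higher and 25 lower by the unadjusted p at 0.05 (72 and 283 of all 12031 genes), and DESeq2 called 4 higher and 3 lower (0.208% of all genes in each direction). The median log2 change of members was -0.34 in DMSO and 0.21 in ATRi, beside -0.26 and 0.14 in all genes. GINS2 fell in both treatments in value, from 23.3 RPM to 12 in DMSO and from 24.6 to 16.7 in ATRi (log2 change -0.73 ± 0.27), and its partner ENSG00000131149 from 71.6 to 32.7 and from 72.1 to 56.3 (-0.74 ± 0.23). TYMS went from 40.7 to 15.5 in DMSO and from 40.2 to 31.8 in ATRi, and ENOSF1 from 50.2 to 25.0 and from 44.4 to 41.0. In each of these 4 genes both 22 h values lay under both 16 h values, without passing the test.

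Few genes of the pathways examined were in overlapping pairs, and whole lists are given for comparison. All 42 listed genes of the mitotic list were called higher at 22 h in Ser2 by limma (34 relative to the median gene), with a median log2 change of 0.69, and 3 of them were in overlapping pairs. Of 42 genes of G1/S and replication, 7 were higher and 6 lower (0 and 21 relative to the median gene). Of 33 genes of cleavage, polyadenylation and termination, 20 were higher and 0 lower (6 and 0 relative to the median gene), with a median of 0.30 beside 0.21 in all genes. The 5 of that list in overlapping pairs were CPSF1 and CPSF4 of the cleavage and polyadenylation complex, CSTF3 of the cleavage stimulation factor, INTS11, the nuclease of the Integrator complex, and TOX4, a subunit of a phosphatase complex that acts on RNAPII. CSTF3 changed by 0.53 ± 0.10 (adjusted p = 0.00072) and TOX4 by 0.34 ± 0.10 (adjusted p = 0.015). INTS11 stood at 0.23 ± 0.12 (adjusted p = 0.12), CPSF4 at 0.26 ± 0.11 (adjusted p = 0.0714) and CPSF1 at 0.23 ± 0.10 (adjusted p = 0.0783). Beside these counts, 39% of all genes were higher and 0.918% lower. Of 26 genes of serine 2 kinases and elongation 19 were higher (3 higher and 1 lower relative to the median gene), among them LEO1 of the PAF1 complex (0.39 ± 0.10, adjusted p = 0.00389), and of 21 genes of R-loops and DNA topology 11 were (5 and 1 relative to the median gene), among them THOC1 of the THO complex (0.32 ± 0.10, adjusted p = 0.016) and the topoisomerase TOP3B (0.36 ± 0.10, adjusted p = 0.00743).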

How the data were processed

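RNAPII ChIP-seq values were deposited by the authors as 1 table of RPM, reads per gene span per 1000000 library reads, for 14 libraries, 7 per antibody. Bowtie2 2.3.3.1, SAMtools 1.4 and the hg38 build are named in the submitters' processing notes. The counting tool and the annotation are not given in the sources used here. All values were whole multiples of the worth of 1 read (tolerance 0.01 reads), which gave each library's depth: 3 reads are worth 0.048 to 0.175 RPM. The RPM denominator is therefore all library reads, and 14 mitochondrial genes were left out. Genes were named by position against RefSeq GRCh38.p14 (10727 of 12411), and unmatched genes keep their identifiers.

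The comparisons were Ser2 relative to total (paired within each hour and treatment), ATRi against DMSO (hours as blocks), their interaction, and 22 h against 16 h with 19 h in the fit (treatments as blocks). Genes whose mean reached 1 RPM were fitted together by limma 3.58.1 in R 4.3.3 on log2(RPM + 0.5), with Benjamini-Hochberg adjustment at 0.05 over all genes, and likewise over all neighbouring pairs for the difference between partners. Fold changes are on that scale. Alternatives were other pseudocounts and filters, median centring, edgeR 4.0.16 and DESeq2 1.42.0 on recovered reads, subsets of pairs, and 1 pair of libraries or 1 hour left out (for the calls of 22 h against 16 h, only the 19 h libraries; for their medians, each treatment). The scripts were tested on simulated data. Named were the pairs with the longest overlap, the largest shared part, the highest level and the largest difference in level, the members and pairs with the largest called changes, and members of 5 pathway lists. TESK2, ABR, ERCC1 and other partners are named with them. Members and lists were chosen with earlier results of these data known. The result of 1 pair is not reported here.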

Additional observations from a re-analysis of the deposited data

Results flagged for a closer look

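In 3 comparisons the median log2 change over members went opposite ways in different hours or treatments, each value resting on 1 pair of libraries, and the differences between hours or treatments were not tested. ATRi against DMSO in total RNAPII gave 0.0577 at 16 h, -0.0362 at 19 h and 0.65 at 22 h, beside 0.05, -0.03 and 0.50 in all genes. From 16 to 22 h in total RNAPII the median was -0.34 in DMSO and 0.21 in ATRi, beside -0.26 and 0.14 in all genes. The ATRi change in Ser2 minus that in total was 0.0363 at 16 h, 0.12 at 19 h and -0.39 at 22 h, beside 0.02, 0.09 and -0.31 in all genes. All 3 comparisons contain the total RNAPII libraries of 16 h and 22 h from both treatments. The share of reads in nuclear genes was 49.4% in DMSO and 52.0% in ATRi at 16 h. At 22 h it was 42.8% and 57.4%. The part of any library or of this share in the medians was not tested.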

How the results depend on the processing

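Of 308 alternative values, 266 kept their direction and side of the threshold, or moved within the set limits. The cause of the other values was not tested. The 266 include percentages of 0 that stayed at 0. For medians and correlations the limit was the SD over library pairs, which can be wide. For ATRi in total RNAPII the SD was 0.374, so the median counted as kept although it went from 0.22 to 0.01 without 22 h. The count is therefore no measure of how firm each result is. Members called higher and lower in Ser2 relative to total (1.53% and 89%) became 19.5% and 28.8% with median centring, 20.1% and 30.1% by edgeR and 21.1% and 23.2% by DESeq2, and 0.948% to 1.68% and 84.1% to 89.4% with 1 pair of libraries left out, the lowest share higher without 22 h ATRi. From 16 to 22 h in Ser2 (58.9% and 0.219%) they became 18.1% and 4.38% with centring, 15.5% and 2.63% by edgeR, 9.12% and 2.12% by DESeq2, and 54.7% and 0.0729% without 19 h. The share lower was 0.596% in pairs with under 10% overlap and 0.425% in pairs with no other overlapping gene. In total RNAPII DESeq2 called 0.292% and 0.219%. ATRi in Ser2 gave 0% to 8.90% higher with 1 hour left out. The balance from 16 to 22 h in Ser2 (1.31% and 0.727%) was 1.98% higher with no other overlapping gene, 1.19% lower under 10% overlap, and 0.145% and 0% without 19 h. The direction of 2 medians turned: with 1 hour left out the interaction ranged from -0.172 (without 19 h) to 0.0707 (without 22 h), and 22 h against 16 h in total from -0.337 (without ATRi) to 0.208 (without DMSO).

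Over all overlapping pairs as deposited, r was 0.30 for Ser2 relative to total and 0.36 for the interaction. For ATRi in total and Ser2 it was 0.38 and 0.43, and from 16 to 22 h 0.66 and 0.59. The correlation between partners moved as follows, in alternatives chosen after seeing the data. With the overlap's reads taken off at 3 times the partner's density in pairs under 10%, r was 0.19 for Ser2 relative to total, 0.20 and 0.29 for ATRi in total and Ser2, 0.19 for the interaction, and 0.45 and 0.42 from 16 to 22 h in total and Ser2. At 1 time the density it was 0.31 for the interaction and 0.55 and 0.52 from 16 to 22 h. Under 10% overlap with nothing taken off it was 0.58 and 0.56 from 16 to 22 h, 0.32 for Ser2 relative to total and 0.36 for the interaction. With both genes above 2 times the level of evenly spread reads it was 0.21 for Ser2 relative to total, 0.48 for ATRi in total and 0.44 for the interaction. With RefSeq spans overlapping too it was 0.33 for the interaction and 0.62 from 16 to 22 h in Ser2. The labels give no replicate numbers, so blocks were the hours and treatments.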
